A study of Mus musculus with 8 samples.

Results

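The heat shock response of the mouse kidney was followed here in 10 genes: the transcription factor gene *Hsf1* and the chaperone genes *Hspa1a*, *Hspa1b*, *Hspa8*, *Dnajb1*, *Hsph1*, *Hsp90aa1*, *Hspb1*, *Hspd1* and *Hspe1*. They are 10 of the 55919 genes of the deposited table and were picked by gene name. The rule used no measured value, but the list was drawn up with earlier results of these data known. All 10 reached at least 1 FPKM (fragments per kilobase of gene, scaled to library size) in all 8 libraries, and each had 1 row.

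The libraries were made from polyadenylated RNA of whole kidneys of female mice on a mixed C57BL/6 x 129S4/SvJae background. *Tet1* encodes an enzyme that oxidises methylated cytosine in DNA. *Tet1* KO mice carried the knockout allele on both copies in every tissue, so no cell type was targeted, and WT mice were their age- and sex-matched littermates. The age of the mice that were sequenced is not stated. In the I/R 3D groups the left renal pedicle was clamped for 45 min and kidneys were taken 3 days after the clamp was removed. The NI groups were non-injured kidneys with no other treatment, and the sources do not say whether these came from the operated mice or from others. WT-NI and KO-NI are the non-injured groups, and the injured ones are called WT-I/R 3D and, for the KO, KO-I/R 3D. Every group had 2 libraries, and each library pooled RNA of 3 mice. The p-values therefore measure the spread between pools, with 2 per group.

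HSF1 is held inactive in unstressed cells and, when misfolded proteins accumulate, forms trimers that bind heat shock elements, which are inverted repeats of the unit nGAAn, in the promoters of chaperone genes. HSP70 proteins bind exposed hydrophobic stretches of other proteins with the help of J-domain proteins and nucleotide exchange factors, HSP90 matures kinases and steroid receptors, small heat shock proteins hold unfolded proteins in a soluble state, and HSP60 with HSP10 folds proteins inside mitochondria. In the kidney, ischemia of the tubule is a classical inducer of HSP70 and of HSP25, the mouse HSPB1 protein.

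Promoter sequences show how the HSF1 recognition letters are placed in front of these genes. In the RefSeq promoter table (GRCm38.p6, 250 bases before to 50 bases after a start) 7 of the 10 genes matched, with 10 windows. The letters searched were GAANNTTC and TTCNNGAA, each of which reads the same on both strands and each of which holds 2 units of the element. The motifs can overlap by the 3 letters GAA or TTC, which gives 3 units in a row, and a further overlap gives 4. The sequences below, in front of the genes that rose or fell with injury (*Hspe1* shares most of its window with 1 start of *Hspd1*) and of *Hsph1*, are printed 5′ to 3′ on the gene's strand, end at the base before the start, and carry every match in capitals.
Hspa1b, chr17:34959239-34959488, minus strand: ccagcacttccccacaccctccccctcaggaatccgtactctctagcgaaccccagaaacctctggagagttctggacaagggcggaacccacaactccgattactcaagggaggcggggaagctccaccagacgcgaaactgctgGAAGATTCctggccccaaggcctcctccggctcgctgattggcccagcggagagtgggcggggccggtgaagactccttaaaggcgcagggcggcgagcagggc
Hspb1, chr5:135887669-135887918, plus strand: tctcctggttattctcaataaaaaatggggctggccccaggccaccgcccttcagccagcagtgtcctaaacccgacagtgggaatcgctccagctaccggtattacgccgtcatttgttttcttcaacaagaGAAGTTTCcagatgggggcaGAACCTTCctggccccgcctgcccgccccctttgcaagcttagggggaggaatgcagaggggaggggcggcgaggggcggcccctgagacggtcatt
Hspe1, chr1:55087898-55088147, plus strand: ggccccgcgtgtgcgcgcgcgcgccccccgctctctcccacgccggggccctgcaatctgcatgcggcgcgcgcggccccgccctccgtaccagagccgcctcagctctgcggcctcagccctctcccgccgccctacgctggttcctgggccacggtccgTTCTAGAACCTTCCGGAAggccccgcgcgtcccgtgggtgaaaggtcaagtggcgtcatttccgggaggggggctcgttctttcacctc
Hsph1, chr5:149636337-149636586, minus strand: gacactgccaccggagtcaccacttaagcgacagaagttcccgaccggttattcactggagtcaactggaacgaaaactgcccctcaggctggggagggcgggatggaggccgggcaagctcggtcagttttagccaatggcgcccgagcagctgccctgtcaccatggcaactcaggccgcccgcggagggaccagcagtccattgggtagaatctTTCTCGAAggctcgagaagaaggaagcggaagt

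At least 1 of the 2 motifs was found in the windows of 6 of the 7 genes, against 15.1% of all 32851 promoter windows of the same 300 bases. A gene was counted if any of its windows held a motif, while the background counts single windows. *Hspa1a* and *Hspa1b* have nearly the same window, and *Hspd1* and *Hspe1* share most of one, so these genes are not separate cases. GAANNTTC alone was in 7.86% of all windows and TTCNNGAA alone in 8.52%. A run of at least 3 units was found for 3 genes, *Hspd1*, *Hspe1* and *Hsph1*, against 0.603% of all windows, and the stretch in capitals of *Hspe1* holds 4 units. In *Hspa1b* a single GAANNTTC began 104 bases before the start. *Hspb1* had 2 separate copies of GAANNTTC, beginning 117 and 97 bases before the start. *Hsph1* had TTCNNGAA 33 bases before the start, and its run of 3 units lay within the 50 bases after it, which are not printed. Neither motif was in the windows of *Dnajb1*. A match is a run of letters and does not show that HSF1 was bound there.

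Some of these genes also share sequence or position. *Hspa1a* and *Hspa1b* lie 9951 bases apart on chromosome 17 (*Hspa1a* at 34969190 to 34972156, *Hspa1b* at 34956436 to 34959238, both on the minus strand, GRCm38), and their promoter windows differed at 4 of 300 bases. *Hspd1* (chromosome 1, 55077835 to 55088243, minus strand) and *Hspe1* (55088132 to 55091307, plus strand) start head to head and their gene models overlap by 112 bases. *Hspd1* has 2 windows, for separate starts. The one at the start of the gene model held neither motif. The other one, whose start lies within the gene model, shared 285 of 300 bases, with 0 differences, with the *Hspe1* window and so holds the same run of 4 units. *Hspb1* lies on chromosome 5 at 135887919 to 135889563 on the plus strand. *Hsf1* lies on chromosome 15, *Hsp90aa1* on chromosome 12, *Hspa8* on chromosome 9, *Dnajb1* on chromosome 8 and *Hsph1* on chromosome 5.

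The shared sequence limits how well reads of some genes can be told apart. Of all 100-base windows along its transcripts, *Hspa1a* shared 56.5% exactly with another gene (47.1% with *Hspa1b*), *Hspa1b* 49.9%, *Hspb1* 44% (pseudogene *Hsp25-ps1*), *Hsp90aa1* 38%, *Hspa8* 28.5%, *Hspd1* 23.9% and *Hspe1* 11%. *Hsf1*, *Dnajb1* and *Hsph1* shared none. *Hsp25-ps1* itself was listed at 0 to 0.431 FPKM. The genes sharing most windows with other members were listed higher. *Hspd1-ps3* (for *Hspd1*) was at 3.152 to 22.3 FPKM, *Gm15459* (for *Hspa8*) at 12.82 to 22.38 and *Gm12346* (for *Hsp90aa1*) at 1.455 to 2.999. How the authors assigned reads that match several genes, and whether strand was used, is not stated in those sources, so the separate levels of *Hspa1a* and *Hspa1b* are uncertain, as are reads in the 112 bases where *Hspd1* and *Hspe1* overlap.

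Across the series, libraries held 13961281 to 18480858 reads, and kidney markers were present: all 10 proximal tubule genes, 6 thick ascending limb genes, 10 distal tubule and collecting duct genes and 6 podocyte genes checked were above 0 in all 8 libraries. The first KO-NI library stood apart. Between the KO-NI libraries 1804 genes differed more than 2-fold, against 723 to 838 between the libraries of the other groups, and 10.9% of its reads were mitochondrial against 4.76% to 7.70% in the other 7. Of the 10 genes, 5 had their lowest and 3 their highest value of all 8 libraries there, and its FPKM was 0.580 (*Hspb1*) to 1.72 (*Hsp90aa1*) times that of the second KO-NI library. By label, *Tet1* had 0.378 and 0.323 FPKM in WT-NI and 0.243 and 0.313 FPKM in WT-I/R 3D. It had 0.551 and 0.382 FPKM in KO-NI and 0.189 and 0.159 FPKM in the injured KO, and 51 to 96 reads each. These values cover the whole gene and check no deleted part of it. The libraries labelled KO-NI were not lower than WT-NI, while those labelled KO-I/R 3D were lower than WT-I/R 3D. Since no deleted part was checked, every KO value below, injured or not, rests on the label. For its KO kidneys the paper reported *Tet1* mRNA as hardly detectable by qPCR and less Tet1 protein by staining.

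Levels per length spanned from 3.69 FPKM of the regulator to 527 FPKM of the constitutive chaperone *Hspa8*. In WT-NI the order of mean FPKM was *Hspa8* (392), *Hspd1* (204), *Hspe1* (103), *Hsp90aa1* (71.1), *Hsph1* (24.5), *Hspa1b* (22.7), *Dnajb1* (16.7), *Hspb1* (13.9), *Hspa1a* (8.71) and *Hsf1* (5.56). Neighbours overlapped between their libraries for *Hsph1* with *Hspa1b* and for *Dnajb1* with *Hspb1*, and the other neighbours did not. In WT-I/R 3D *Hspb1* (61.2) stood 5th, behind *Hsp90aa1* and ahead of *Hspa1b*, and no neighbours overlapped. In KO-I/R 3D *Hsp90aa1* (131.5), *Hspd1* (117), *Hspb1* (102.5) and *Hspe1* (97.0) followed *Hspa8* in that order, each overlapping the next. In KO-NI the order of the 10 genes was that of WT-NI. Neighbours overlapped there for *Hspe1* with *Hsp90aa1*, *Hspa1b* with *Dnajb1* and *Hspa1a* with *Hsf1*.

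**Figure D1:**
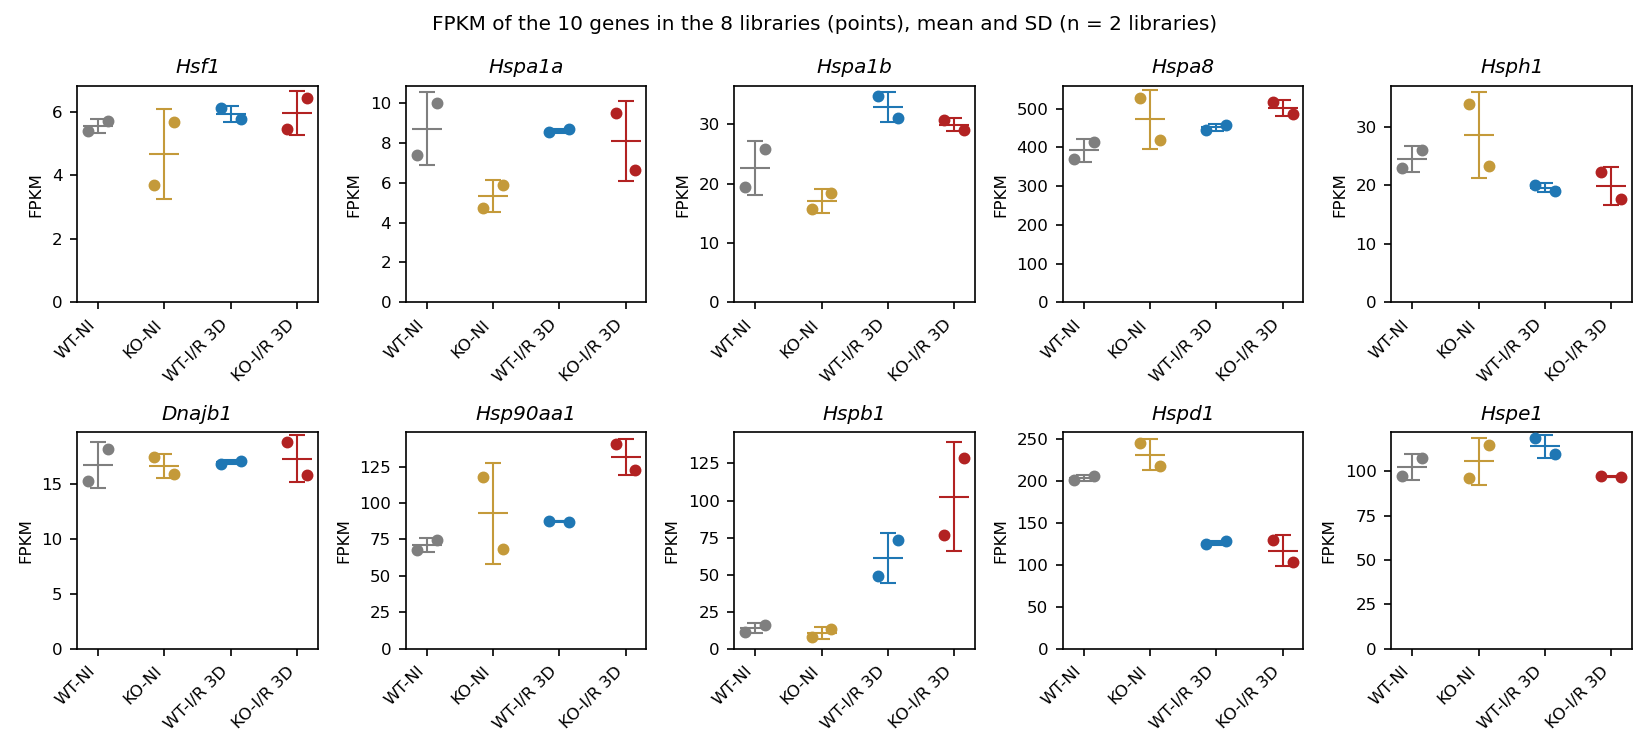
FPKM (vertical axes, each starting at 0) of the 10 genes in the 8 libraries, 1 panel per gene; points are libraries, the long bar is the group mean and the whiskers are ± 1 SD (n = 2 libraries of 3 mice each). *Hspb1* lay at 7.83 to 16.3 FPKM in the 4 NI libraries and at 49.2 to 128.5 FPKM in the 4 I/R 3D libraries, and *Hspd1* at 201 to 245 and 104 to 130 FPKM.

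Injury in WT kidneys was compared first (WT-I/R 3D against WT-NI), to see which heat shock genes stood higher or lower 3 days after ischemia. *Hspb1* rose 4.36-fold and *Hspd1* fell to 0.621 of its level. The other 8 genes, *Hsf1* among them, did not pass the test. The test was limma on log2(FPKM + 0.1) over 15650 genes with all 4 groups in 1 model, and a gene was called at a Benjamini-Hochberg adjusted p under 0.05 with an absolute log2 fold change over 0.5, the thresholds of the study. With these, 1 of 10 genes was called higher and 1 lower (on TPM 2 higher, *Hspb1* and *Hspa1b*, and 0 lower, with 11.6% and 4.58% of all genes), while 8.9% of all genes tested were called higher and 8.45% lower (17.3% in all). The shares among the 10 genes are near these backgrounds. The libraries of the groups did not overlap for 6 genes that were higher and 2 that were lower, against 34.5% and 37.6% of all genes. The median log2 fold change of the 10 genes was 0.12 and that of all genes was -0.01.

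*Hspb1* encodes the small heat shock protein HSP25 (HSP27 in humans), which binds unfolded proteins and actin. It was listed at 11.5 and 16.3 FPKM in WT-NI, 7.83 and 13.5 in KO-NI, 49.2 and 73.2 in WT-I/R 3D and 76.5 and 128.5 in KO-I/R 3D. Every injured library was above every non-injured one, from 91 reads in the lowest library to 2759 in the highest. Group means were 61.2 ± 16.9 FPKM with and 13.9 ± 3.44 FPKM without injury (SD, n = 2 libraries), a log2 fold change of 2.12 (standard error 0.37, limma adjusted p = 0.0125). The 95% confidence interval of the fold was 2.38 to 8.003. The adjusted p was 0.0952 with the second WT-I/R 3D library left out, 0.0873 with the first WT-NI library left out and 0.0530 with the second one left out, and it was not above 0.05 with the first WT-I/R 3D library left out (range over all settings tried 0.00209 to 0.113).

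Markers of other cells moved together with *Hspb1*. In a bulk sample, a change in the share of a cell type and a change in RNA per cell cannot be told apart. Of 10 macrophage and monocyte markers, 9 were called higher in WT-I/R 3D, with a summed level of 86.7 to 96.6 FPKM in WT-NI, 71.0 to 72.0 in KO-NI, 537 to 602 in injured WT and 612 to 948 in injured KO libraries, and none was at 0 in any library. Of 8 fibroblast and pericyte markers 7 were called higher (58.9 to 63.1, 56.6 to 59.8, 236.5 to 271 and 298 to 367 FPKM in the same order). All 6 markers of dividing cells were called higher (2.81 to 3.75, 5.36 to 7.04, 27.9 to 37.9 and 49.1 to 56.4 FPKM). Among all genes tested, 8.9% were called higher in this comparison. Muscle is rich in *Hspb1*, and of 6 muscle markers 4 (*Ckm*, *Acta1*, *Myl1* and *Tnnt3*) were at 0 in at least 1 library, while the sum of all 6 was 8.70 to 9.34 FPKM in WT-NI, 6.79 to 7.76 in KO-NI, 10.7 to 13.5 in injured WT and 10.9 to 12.7 in injured KO libraries, higher in every injured library than in every non-injured one. Of the 2 muscle markers tested, 1 was called higher and 1 lower in each injury comparison. The part of these cells in the rise of *Hspb1* was not tested.

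*Hspd1* encodes HSP60, the folding chamber of the mitochondrial matrix. Its values were 201 and 206.5 FPKM in WT-NI, 245 and 218.5 in KO-NI, 125 and 128 in WT-I/R 3D and 130 and 104 in KO-I/R 3D. All 4 injured libraries were below all 4 non-injured ones. WT means went from 203.7 ± 3.96 to 126.5 ± 2.54 FPKM (SD, n = 2 libraries), a log2 fold change of -0.69 (standard error 0.15, limma adjusted p = 0.0219, 95% confidence interval of the fold 0.489 to 0.789). Left-out WT libraries raised the adjusted p to 0.114 to 0.134, and on TPM, a scale that raises the log2 fold change of the median gene by 0.18 in this comparison and by 0.40 in the KO, the log2 fold change was -0.50 with an adjusted p of 0.0501 (range over all settings 0.00357 to 0.134). Proximal tubule markers, from cells rich in mitochondria, were called lower for 8 of 10 and higher for 1, and their summed level was 3101 to 3137 FPKM in WT-NI, 2796 to 3132 in KO-NI, 1360 to 1596 in WT-I/R 3D and 673 to 935 in KO-I/R 3D. Distal tubule and collecting duct markers were called lower for 6 of 10 (964 to 1042, 969 to 973.5, 560 to 776 and 327 to 332 FPKM in the same order), and thick ascending limb markers for 1 of 6 (2454 to 2805, 2792 to 3226, 1960 to 2021 and 1044 to 1342 FPKM). Among all genes tested, 8.45% were called lower in WT. The part of these tubule cells in the fall of *Hspd1* was not tested.

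*Hspe1* encodes HSP10, the lid of the HSP60 chamber, and is the head-to-head neighbour of *Hspd1*. It was at 97.5 and 107.5 FPKM in WT-NI, 96.1 and 115 in KO-NI, 118.5 and 109.5 in WT-I/R 3D and 97.1 and 96.8 in KO-I/R 3D. Unlike *Hspd1* it was not called: the log2 fold change was 0.15 in WT (standard error 0.13, limma adjusted p = 0.465) and -0.12 in the KO, which turned to 0.29 on TPM. The ratio of *Hspe1* to *Hspd1* FPKM within a library, which does not depend on the scaling between libraries, was 0.485 and 0.521 in WT-NI, 0.392 and 0.526 in KO-NI, 0.951 and 0.853 in WT-I/R 3D and 0.747 and 0.931 in KO-I/R 3D. All 4 injured libraries lay above all 4 non-injured libraries. The ratios are given as a description, with no test.

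**Figure D2:**
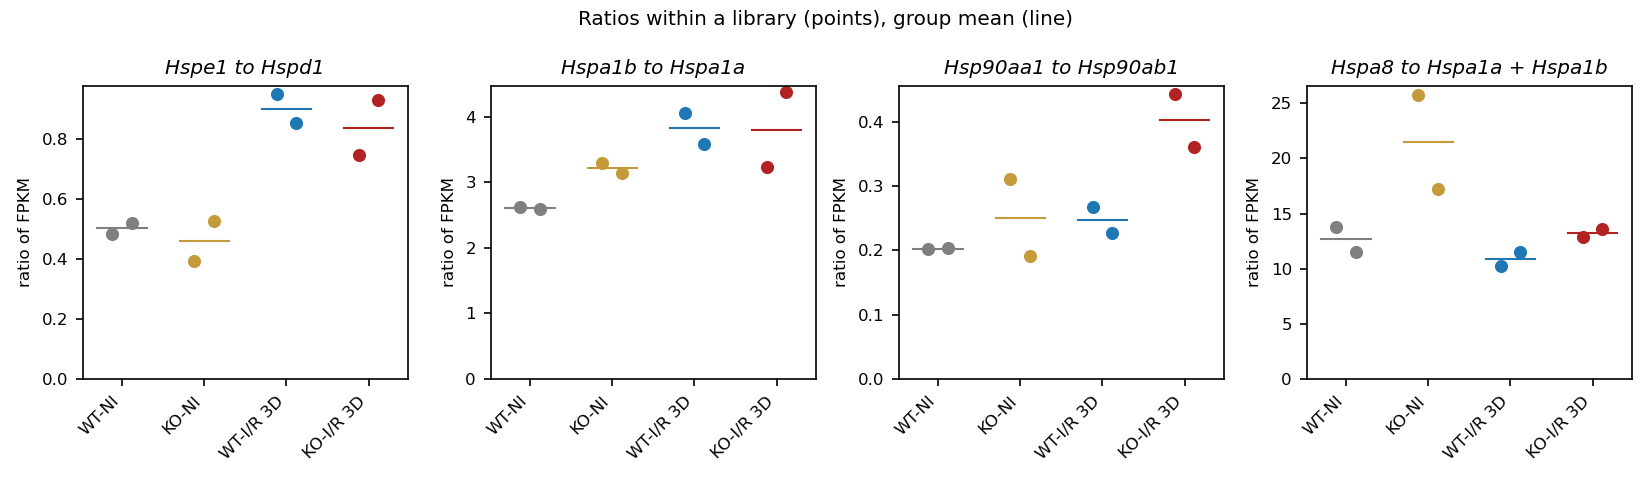
Ratios of FPKM within each library (vertical axes, each starting at 0) for *Hspe1* to *Hspd1*, *Hspa1b* to *Hspa1a*, *Hsp90aa1* to *Hsp90ab1*, and *Hspa8* to the sum of *Hspa1a* and *Hspa1b*; points are libraries and lines are group means. The ratio of *Hspe1* to *Hspd1* was 0.392 to 0.526 in the NI libraries and 0.747 to 0.951 in the I/R 3D libraries.

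*Hspa1b* and *Hspa1a* encode the stress-inducible HSP70 proteins, which are nearly identical. *Hspa1b* was listed at 19.4 and 25.9 FPKM in WT-NI, 15.7 and 18.5 in KO-NI, 34.7 and 31.1 in WT-I/R 3D and 30.7 and 29.2 in KO-I/R 3D. Its injured libraries were all above the non-injured ones. In WT the log2 fold change was 0.55 (standard error 0.17, limma adjusted p = 0.0662), short of the threshold, and it was under 0.05 without the first KO-NI library (0.0373), without the second (0.0368), with only the 4 WT libraries (0.0449), on TPM (0.0401) and with limma voom on read counts (0.0385). Over all settings the adjusted p ran from 0.0368 to 0.349.

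*Hspa1a* was listed at 7.41 and 10.01 FPKM in WT-NI, 4.75 and 5.89 in KO-NI, 8.54 and 8.67 in WT-I/R 3D and 9.51 and 6.65 in KO-I/R 3D. The WT groups overlapped, and their log2 fold change was -0.0008 (standard error 0.22) and 0.18 on TPM. Since reads of the 2 genes can be exchanged, their sum was taken as well. It was 26.8 and 35.9 FPKM in WT-NI, 20.4 and 24.4 in KO-NI, 43.3 and 39.8 in WT-I/R 3D and 40.2 and 35.8 in KO-I/R 3D. For the sum the injured libraries were above the non-injured ones within each genotype, with a log2 fold change of 0.42 in WT (limma adjusted p = 0.145) and 0.76 in the KO (standard error 0.17, limma adjusted p = 0.0133). The ratio of *Hspa1b* to *Hspa1a* was 2.59 and 2.62 in WT-NI and 3.14 to 4.38 in the other 6 libraries, a value that depends on how shared reads were assigned.

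*Hspa8* encodes HSC70, the constitutive HSP70 of the cytosol, and was the most abundant of the 10 genes in every group. It was at 371 and 414 FPKM in WT-NI, 527 and 419 in KO-NI, 445 and 459 in WT-I/R 3D and 518 and 487.5 in KO-I/R 3D. The range of its group means was 0.36 on the log2 scale, and it was called in none of the comparisons. *Hspa8* stood 11.5 and 13.8 times above the sum of *Hspa1a* and *Hspa1b* in WT-NI, 17.2 and 25.8 times in KO-NI, 10.3 and 11.5 times in WT-I/R 3D and 12.9 and 13.6 times in KO-I/R 3D.

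*Hsp90aa1* encodes the inducible cytosolic HSP90 alpha. It was at 67.8 and 74.3 FPKM in WT-NI, 118 and 68.4 in KO-NI, 87.6 and 87.3 in WT-I/R 3D and 140 and 123 in KO-I/R 3D. The WT groups did not overlap, but the log2 fold change of 0.30 (standard error 0.24) did not pass (limma adjusted p = 0.433). Set against *Hsp90ab1*, the constitutive HSP90 beta, the ratio was 0.202 and 0.204 in WT-NI, 0.191 and 0.311 in KO-NI, 0.228 and 0.267 in WT-I/R 3D and 0.362 and 0.443 in KO-I/R 3D. Both KO-I/R 3D libraries had a higher ratio than the other 6.

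*Dnajb1* encodes HSP40, a J-domain partner of HSP70, and was the most even of the 10 genes. It lay between 15.2 and 18.8 FPKM in all 8 libraries, and its group means spanned 0.05 on the log2 scale. *Hsph1* encodes HSP105, which exchanges nucleotide on HSP70. It was at 22.95 and 26.04 FPKM in WT-NI, 33.9 and 23.4 in KO-NI, 20.1 and 19.1 in WT-I/R 3D and 22.2 and 17.7 in KO-I/R 3D. The injured libraries were all below the non-injured ones, but neither injury comparison passed (log2 fold change -0.32, limma adjusted p = 0.318 in WT, and -0.50, adjusted p = 0.0881 in the KO).

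*Hsf1*, the regulator, was the lowest of the 10 genes in mean FPKM in every group. It was listed at 5.41 and 5.71 FPKM in WT-NI, 3.69 and 5.68 in KO-NI, 6.12 and 5.77 in WT-I/R 3D and 5.47 and 6.45 in KO-I/R 3D, from 295 to 953 reads. The first KO-NI library was the only one below 5 FPKM. In WT the log2 fold change with injury was 0.09 (standard error 0.21, 95% confidence interval -0.40 to 0.59, limma adjusted p = 0.792). HSF1 is switched on by trimerisation and phosphorylation of existing protein, which mRNA levels do not measure.

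Injury in *Tet1* KO kidneys (KO-I/R 3D against KO-NI) called 3 genes. *Hspb1* rose 9.56-fold, *Hspa1b* rose 1.75-fold and *Hspd1* fell to 0.503 of its level. With 2 of 10 genes called higher and 1 lower, against 17.9% and 19.4% of all genes (37.4% in either direction), both counts lay within 1 gene of the background. Libraries did not overlap for 4 genes that were higher and 2 that were lower (32.5% and 34.9% of all genes), and the median log2 fold change was 0.23 against -0.01 for all genes. *Hspb1* went from 10.7 ± 4.01 to 102.5 ± 36.8 FPKM (SD, n = 2 libraries), a log2 fold change of 3.26 (standard error 0.37, limma adjusted p = 0.00102). For *Hspa1b* the log2 fold change was 0.81 (standard error 0.17, adjusted p = 0.00939), and for *Hspd1* it was -0.99 (standard error 0.15, adjusted p = 0.00246).

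The marker lists moved in the same directions here, with 9 of 10 macrophage and monocyte, 7 of 8 fibroblast and pericyte and 6 of 6 dividing cell markers called higher. Of 6 tested lymphocyte and neutrophil markers, 5 were called higher here, against 1 in WT. Called lower were 9 of 10 proximal tubule markers (the other 1 was called higher), 8 of 10 distal tubule and collecting duct markers and 5 of 6 thick ascending limb markers. The shares of all genes were 17.9% higher and 19.4% lower. Without the first KO-NI library the same 3 genes were called and *Hsp90aa1* as a 4th (17.4% of all genes higher, 19.1% lower), with a log2 fold change of 0.94 (limma adjusted p = 0.00309, against 0.113 with all libraries and up to 0.467 over all settings). Without the second KO-NI library *Hsf1* (higher) and *Hsph1* (lower) were called beside the 3 genes, with 24% of all genes called higher and 23.4% lower. On TPM *Hsf1*, *Hspa1a* and *Hsp90aa1* were called higher beside them, with 32.4% of all genes called higher and 10.1% lower. *Hspb1* and *Hspd1* stayed called with each library left out, at adjusted p values of at most 0.0203 and 0.0299 over all settings, and *Hspa1b* lost its call with no filter on low genes (adjusted p = 0.0635, the highest over all settings).

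**Figure D3:**
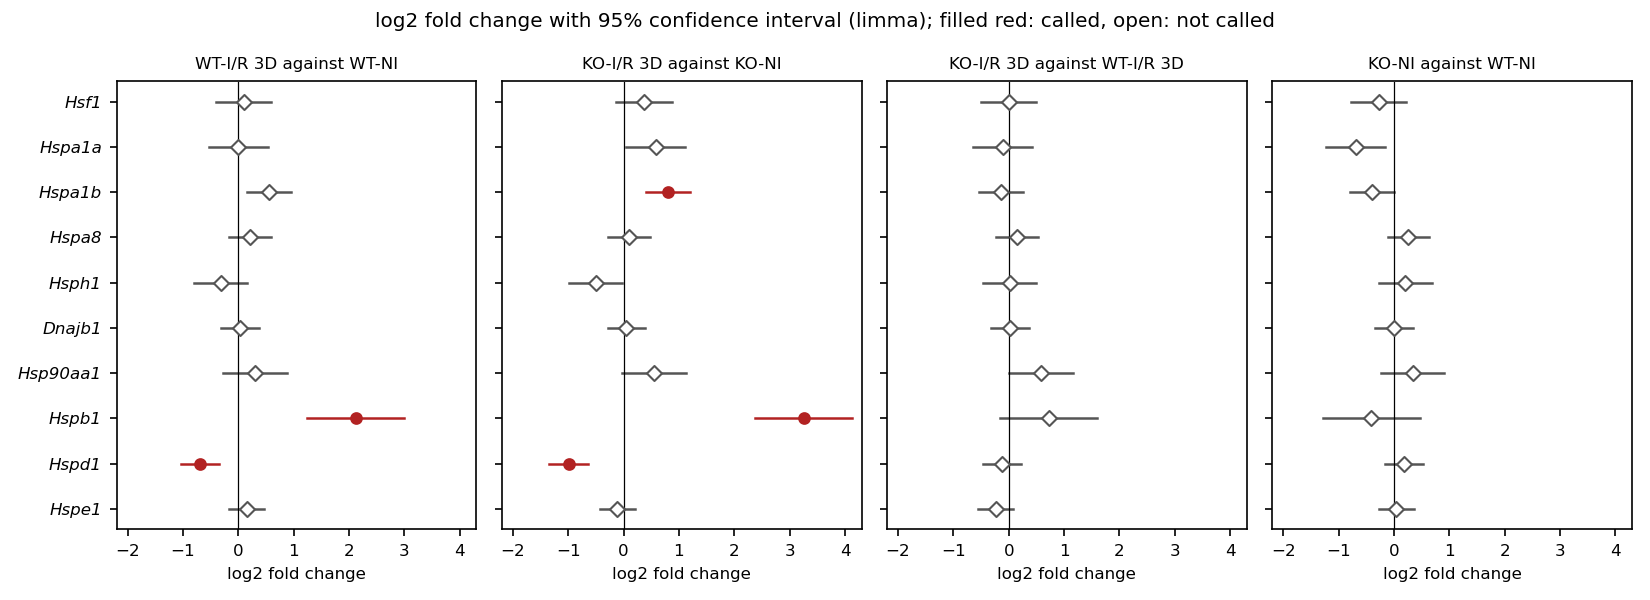
Log2 fold change (horizontal axes) with its 95% confidence interval from limma for the 10 genes in the 4 comparisons between groups, n = 2 libraries per group; filled red points are called and open points are not. *Hspb1* (2.12 and 3.26) and *Hspd1* (-0.69 and -0.99) were called in both injury comparisons, *Hspa1b* (0.81) in the KO, and none of the 10 in either comparison of KO with WT.

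Genotypes were then compared within injured kidneys (KO-I/R 3D over injured WT), to see whether the heat shock genes differed without Tet1. None of the 10 genes was called by limma, as was the case for all genes (0% of 15650 called), 1 of the 10 had an unadjusted p under 0.05 (17% of all genes), and limma voom on read counts called 0 of the 10, with 0.471% of all genes called higher and 1.63% lower. The smallest limma adjusted p of any gene was 0.0862. At the same thresholds the paper reported many genes higher and more genes lower in this comparison, without naming its test. The lack of calls here does not show that the genotypes were alike. *Hsp90aa1* was higher in the KO (log2 fold change 0.59, standard error 0.24, adjusted p = 0.287, unadjusted p = 0.0468), and both KO libraries were above both WT libraries. *Hspb1* was 1.65-fold higher, also without overlap, with a 95% confidence interval of 0.900 to 3.03 (adjusted p = 0.376). Without the first KO-NI library, which is not in this comparison but enters the shared spread, *Hsp90aa1* was called (adjusted p = 0.0413), as it was without the second (adjusted p = 0.0406), with 0.705% and 0.716% of all genes called higher and 3.53% and 3.55% lower in these fits. Over all settings its adjusted p ran up to 0.894. Libraries did not overlap for 3 genes that were higher (*Hspb1*, *Hsp90aa1*, *Hspa8*) and 2 that were lower (*Hspa1b*, *Hspe1*), against 28% and 29.5% of all genes. *Hsf1* differed by 0.0001 on the log2 scale, with a 95% confidence interval of -0.50 to 0.50.

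Markers stood apart in this comparison as well, although none was called. The summed macrophage and monocyte markers, 612 to 948 FPKM in KO-I/R 3D, and the summed dividing cell markers, 49.1 to 56.4 FPKM, lay above the WT-I/R 3D ranges given above, as did the fibroblast and pericyte markers (298 to 367 over 236.5 to 271 FPKM). The summed proximal tubule, thick ascending limb, and distal tubule and collecting duct markers all lay below the ranges of injured WT. Their part in the higher *Hspb1* and *Hsp90aa1* values was not tested.

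Non-injured kidneys of both genotypes (KO-NI against WT-NI) gave no call by limma among the 10 genes or among all genes (0%), 1 of the 10 had an unadjusted p under 0.05 (5.6% of all genes), and limma voom called 0 of the 10. *Hspa1a* was 0.619 of its WT level in the libraries labelled KO-NI, with no overlap (log2 fold change -0.69, standard error 0.22, adjusted p = 0.688, unadjusted p = 0.0178). *Hspa1b* stood at 0.760 of its WT level (adjusted p = 0.688), also without overlap. In all, 2 of the 10 genes were higher and 2 lower without overlap, against 17.7% and 17.2% of all genes. Without the second KO-NI library, which leaves only the one that stood apart, *Hsf1* (log2 fold change -0.58, adjusted p = 0.0461) and *Hsp90aa1* (0.73, adjusted p = 0.0227) were called, as were 5% of all genes higher and 9.31% lower. Without the first they were at 0.030 and -0.054, so both directions rest on that library, and over all settings their adjusted p values reached 1.

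The difference between the injury responses of the genotypes was tested directly. None of the 10 genes passed (0% of all genes called by limma), 0 of the 10 had an unadjusted p under 0.05 (10% of all genes), and limma voom called 0 of the 10. For *Hspb1* the response in the KO was 2.19 times that in WT (log2 difference 1.13, standard error 0.52, limma adjusted p = 0.541), with a 95% confidence interval of 0.929 to 5.18. That *Hspa1b* passed in the KO and not in WT is therefore no difference shown: its log2 difference was 0.26 (standard error 0.24, adjusted p = 0.774).

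The other chaperone genes place the 10 among their partners. A total of 76 genes in 8 lists were examined, of which 71 passed the filter. In WT 2 rose and 6 fell with injury (2.82% and 8.45% of those tested), and in the KO 9 rose and 11 fell (12.7% and 15.5%), shares at or below those of all genes. On TPM, with its shift of the median gene, 6 rose and 1 fell in WT and 25 rose and 5 fell in the KO, so the balance of the lists depends on the scaling. Between injured genotypes limma called none of the 71, 14 had an unadjusted p under 0.05 (17% of all genes did), and limma voom called 2, *Dnajb4* (log2 fold change 0.71, adjusted p = 0.0411) and *Bag1* (-0.58, adjusted p = 0.0498). Between non-injured genotypes limma and limma voom called none, and 2 had an unadjusted p under 0.05. Beside *Hsf1*, the HSF family and binding list had 3 genes above the filter, *Hsf2*, *Hsf4* and *Hsbp1*, and none was called. On TPM 1 of the 3 was called higher with injury in the KO.

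Mitochondrial chaperones and proteases fell along with *Hspd1*. Of 9 genes, 5 were called lower in WT and 6 in the KO, and none higher, with median log2 fold changes of -0.58 and -0.67. The shares of all genes called lower were 8.45% in WT and 19.4% in the KO. *Hspa9*, the mitochondrial HSP70, went from 174 and 180 FPKM in WT-NI to 116 and 116 in WT-I/R 3D (log2 fold change -0.61, limma adjusted p = 0.0155). *Dnaja3*, its J-domain partner (-0.64), *Lonp1*, a matrix protease (-0.62), and *Trap1*, the mitochondrial HSP90 (-0.59), fell by similar amounts in WT. In the KO *Dnaja3* fell by 1.16, *Trap1* by 1.11, *Lonp1* by 0.95 and *Hspa9* by 0.91 on the log2 scale. *Clpp*, a matrix protease, was not called (-0.04 in WT, -0.37 in the KO). With any of the 4 WT libraries left out, and on TPM, 0 of the 9 were called in WT, while 4 of the 9 were called on TPM and 5 to 7 with a library left out in the KO. The fall of proximal tubule markers given above stands beside this list too, and its part was not tested.

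Small heat shock proteins other than *Hspb1* were led by *Cryab*, alpha B crystallin, which forms mixed oligomers with HSPB1. *Cryab* went from 69.3 and 72.8 FPKM in WT-NI to 176 and 147 in WT-I/R 3D and from 59.4 and 71.6 in KO-NI to 140.5 and 193 in KO-I/R 3D. No injured library overlapped a non-injured one, and it was called in both genotypes (log2 fold change 1.18, limma adjusted p = 0.0103, and 1.34, adjusted p = 0.00224). *Hspb8*, which acts with BAG3 in selective autophagy, was called in the KO (1.48, adjusted p = 0.00300), where it was at 2.00 and 1.64 FPKM without and 4.29 and 6.36 with injury. Of the 6 small heat shock protein genes tested, these were the only ones called. Without any 1 of the 4 WT libraries *Cryab* was not called in WT, and without the second KO-NI library 4 of the 6 were called in the KO.

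Partners of HSP70 and HSP90 in the cytosol moved little as groups. Of 16 HSP70 co-chaperones, 1 fell in WT (*Dnaja4*, log2 fold change -0.92, limma adjusted p = 0.0149). In the KO 2 rose, *Dnajb5* (1.045) and *Hspbp1* (0.70), a nucleotide exchange factor. The 3 that fell in the KO were *Bag4* (-0.88), *Dnaja4* (-0.70) and *Dnaja2* (-0.50). The call of *Dnaja4* in WT was lost with any 1 of the 4 WT libraries left out and with no filter, and of the 5 calls in the KO none was left without the second KO-I/R 3D library or with no filter, while on TPM 7 genes rose and 0 fell. *Bag1*, another exchange factor, stood lower in KO-I/R 3D (125 and 128 FPKM) than in WT-I/R 3D (195 and 185.5), short of the threshold (-0.59, adjusted p = 0.0994). Of 12 genes for HSP90 and its co-chaperones, none was called in WT and 2 rose in the KO, *Ppid* (0.60) and *Ahsa1* (0.61), which activates the HSP90 ATPase. Neither was called with either KO-I/R 3D library left out, 1 gene was called without the first KO-NI library, with only the compared libraries 0 genes rose and 1 fell, and on TPM 5 rose in the KO and 2 in WT. Of 7 other HSP70 and HSP110 genes, *Hspa12a* fell in the KO (-0.57) and no other was called in either genotype. That call was lost with a pseudocount of 1, with no filter, with only the compared libraries and with either KO-I/R 3D library left out, and on TPM 1 gene of the list rose and 0 fell. Without the second KO-NI library 2 fell.

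Among 8 subunits of TRiC, the cytosolic chaperonin that folds actin and tubulin, none was called in WT, and *Cct5* (0.57) and *Cct3* (0.51) rose in the KO. With only the compared libraries 0 were called in the KO, without the second KO-I/R 3D library or with a pseudocount of 1 it was 1, and on TPM 6 rose in the KO and 2 in WT. Among 10 ER chaperones, *Serpinh1*, the collagen chaperone HSP47, rose in WT (log2 fold change 1.34, limma adjusted p = 0.00467) and in the KO (1.58, adjusted p = 0.000747). It was at 52.4 and 60.8 FPKM in WT-NI and at 137 and 149.5 in WT-I/R 3D, and the fibroblast and pericyte markers that moved with it are given above. *Dnajc3*, an HSP40 of the ER that also inhibits the kinase PERK, fell in the KO (-0.90). *Serpinh1* lost its call in WT with the second WT-I/R 3D library or the first WT-NI library left out, and *Dnajc3* lost its call in the KO with the second KO-I/R 3D library left out or no filter. The other ER chaperones tested, among them *Hspa5*, were not called in either injury comparison.

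**Figure D4:**
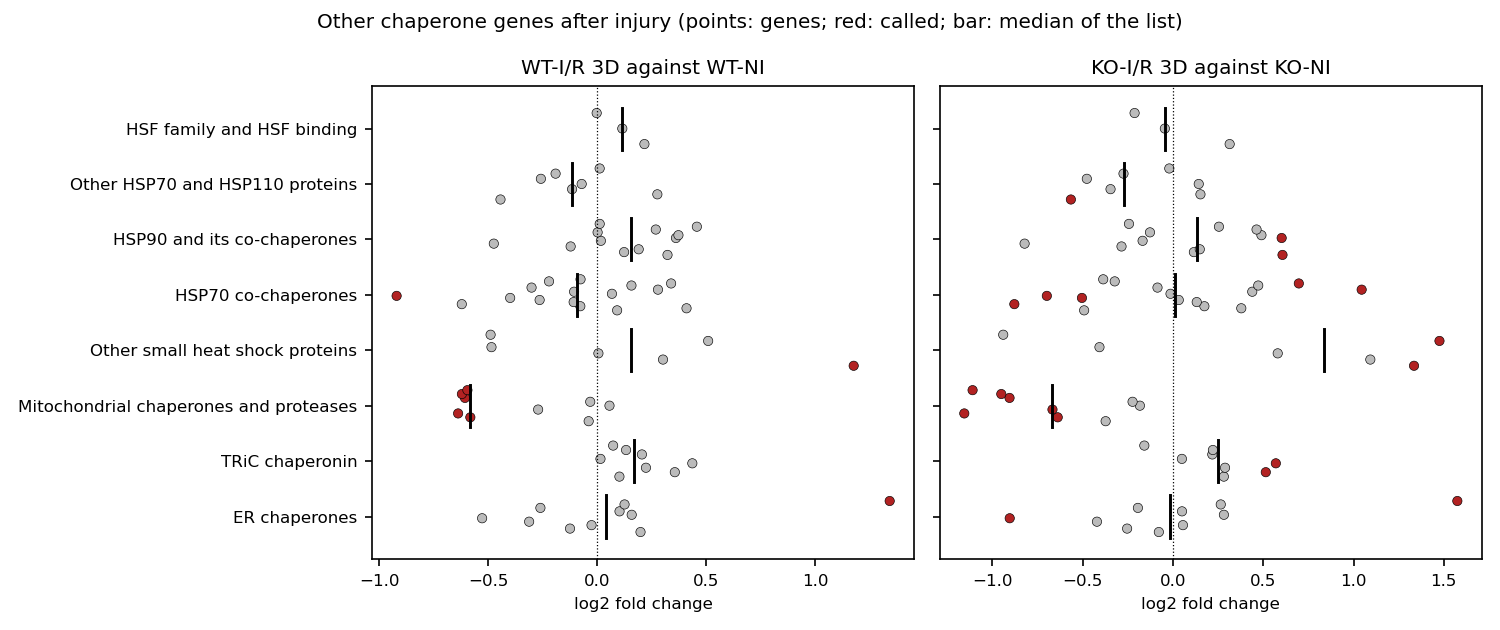
Log2 fold change with injury (horizontal axes) of the 71 other chaperone genes tested, by list, in WT (left) and *Tet1* KO kidneys (right); points are genes, red points are called by limma, and black bars are list medians. The mitochondrial list has its median at -0.58 in WT and -0.67 in the KO, and single genes such as *Cryab* and *Serpinh1* lie above 1 in both.

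Genes with the most similar profile were looked up for *Hspb1*, whose group means spanned the widest range of the 10 (3.26 on the log2 scale), and for *Hsf1*. Over the 8 libraries, the smallest root mean square differences of centred log2(FPKM + 0.1) from *Hspb1* were those of *Cd300lf* (0.145), *Ncf4* (0.165), *E2f8* (0.200), *Gm19951* (0.201) and *Cdkn1a* (0.212). *Cd300lf* and *Ncf4* are genes of myeloid cells and *E2f8* and *Cdkn1a* of the cell cycle. *Cd300lf* lay at 0.0344 to 1.47 FPKM over the libraries, *E2f8* at 0.0489 to 1.52 and *Gm19951* at 0.0668 to 1.99. At such low levels the 0.1 added to FPKM shrinks fold changes, so the closeness of these genes to *Hspb1* depends in part on it. *Cd300lf* reached 1 FPKM only in the KO-I/R 3D libraries, and *E2f8* and *Gm19951* only in injured libraries. They thus passed the filter only through groups where they are high. The closest genes were picked for their likeness to *Hspb1*, so they cannot tell which cells its rise came from. The closest to *Hsf1* were *Zswim8* (0.0462), *Sap30bp* (0.0506), *Nelfb* (0.0522), *Crtc2* (0.0550) and *Cnpy2* (0.0562), which shared its low value in the first KO-NI library. Among the 10 genes themselves the closest pairs were *Hspa8* with *Dnajb1* (0.136) and *Dnajb1* with *Hspe1* (0.154), both pairs of genes that moved little. *Hspa1a* and *Hspa1b*, with nearly the same promoter window, differed by 0.251. These profiles share libraries and depth, and no test was made.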

How the data were processed

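RNA-seq of 8 kidney libraries was used. The authors deposited 1 table of FPKM values per gene. HISAT2 2.0.5 and GRCm38.p6 (mm10) stand in the submitters' processing notes, and no counting program is named there. In every library FPKM times gene length came out as whole reads for 100% of values (tolerance 0.001 reads). The totals the authors had divided by were 0.808 to 1.13 times these reads, so the FPKM were scaled between libraries. The 10 genes had 91 to 43656 reads per library. Positions in the table look like a later assembly and were not used. Positions given come from GENCODE for GRCm38.

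Tests used limma 3.58.1 in R 4.3.3 on log2(FPKM + 0.1), a scale that understates changes of low genes, with 4 group means, a variance trend, and 4 residual and 2.89 prior degrees of freedom. A gene was tested if 2 or more libraries reached 1 FPKM. Each of these was changed in turn: the pseudocount (to 1), the filter (none), the scaling (TPM or median-of-ratios), the libraries fitted (only those compared, or all but 1), the trend (none), a block for the replicate number, and the tool (limma voom on recovered reads, 18252 genes with at least 10 reads in 2 or more libraries). For the lists of other chaperones these changes were chosen after seeing the data. The limma steps were also run on simulated data. That simulation had a fixed spread and no library that stood apart, so it does not show how the steps behave on these libraries. Named genes are the 10, up to 4 called and 2 uncalled genes per list and comparison, and the 5 closest profiles. A few other genes, such as *Dnajb5*, are named beside these. The 10 genes and all lists were chosen with earlier results of these data known.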

Additional observations from a re-analysis of the deposited data

How the results depend on the processing

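For the 10 genes in the 5 comparisons, 727 of the values recomputed kept their direction and their side of the threshold, 15 passed it newly, 11 no longer passed and 37 changed sign. Most of the 727 belonged to genes that were not called and stayed so. The 11 lost calls were those of *Hspb1* and *Hspd1* with injury in WT and of *Hspa1b* in the KO, most of them in WT. With no filter on low genes, 0 of the 10 genes were called with injury in WT instead of 2. On TPM 6 were called in the KO instead of 3 (5 higher, 1 lower, with 32.4% and 10.1% of all genes). The cause was not tested. With 1 library left out, the number of called genes ran from 0 to 3 in WT and from 3 to 5 in the KO with injury, from 0 to 1 between injured genotypes, from 0 to 2 between non-injured genotypes and stayed at 0 for the difference of the responses.

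Most sign changes were in genes near 0. On TPM, whose shift of the median gene was 0.18 (WT injury), 0.40 (KO injury), 0.13 (injured genotypes), -0.09 (non-injured genotypes) and 0.22 (difference of responses), *Hspa1a* turned to 0.18 in WT and *Hspe1* to 0.29 in the KO with injury. Between injured genotypes *Hspa1a* turned to 0.020 and *Hspd1* to 0.012, between non-injured ones *Hspe1* to -0.049, and in the difference of responses *Hspa8* to 0.11 and *Hsph1* to 0.036. Between non-injured genotypes *Dnajb1* turned to 0.0043 with median-of-ratios scaling and to 0.0032 with limma voom. With 1 library left out, log2 fold changes in WT with injury ran from -0.22 to 0.21 for *Hspa1a* and from -0.10 to 0.16 for *Dnajb1*. In the KO with injury they ran from -0.070 to 0.26 for *Hspa8*, from -0.074 to 0.18 for *Dnajb1* and from -0.25 to 0.012 for *Hspe1*. Between injured genotypes they ran from -0.12 to 0.12 for *Hsf1*, -0.37 to 0.14 for *Hspa1a*, -0.10 to 0.15 for *Dnajb1*, -0.15 to 0.18 for *Hsph1* and -0.28 to 0.040 for *Hspd1*. Between non-injured genotypes they ran from -0.58 to 0.030 for *Hsf1*, -0.054 to 0.73 for *Hsp90aa1*, -0.13 to 0.13 for *Dnajb1*, -0.064 to 0.47 for *Hsph1* and -0.091 to 0.17 for *Hspe1*. In the difference of responses they ran from -0.030 to 0.58 for *Hsf1*, -0.14 to 0.64 for *Hsp90aa1*, -0.27 to 0.055 for *Hspa8*, -0.10 to 0.15 for *Dnajb1* and -0.45 to 0.082 for *Hsph1*.

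The labels do not say whether same-numbered libraries of different groups were handled together. Their deviations from the group means correlated by 0.17 over 15650 genes for KO-NI with KO-I/R 3D. For the other pairs of groups the correlations were 0.03 to 0.06. With a single difference between libraries in each group, these values cannot show whether a batch was shared. With the replicate number as a block, 2 of the 10 genes were called with injury in WT and 3 in the KO, and 0 in the other 3 comparisons, the numbers found without it. Leaving out a library leaves its group with 1, which is then assumed to vary like the other groups.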
